A study of Mus musculus with 4 samples.

Results

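The Hox genes are the homeobox transcription factors that lie side by side in 4 clusters, Hoxa, Hoxb, Hoxc and Hoxd. Members were the entries whose gene symbol was Hox, a cluster letter from a to d and a position number, and 39 entries met this rule, of 24850 named entries in each total RNA library and 24992 in each polyA+ library. Hoxa held 11 of them, Hoxb 10, Hoxc 9 and Hoxd 9. In these muscle cells every Hox gene at or above 1 FPKM (fragments scaled to transcript length and library depth) belonged to Hoxa or Hoxc, with Hoxa10 and Hoxc10 at the top, whereas Hoxb and Hoxd were close to or at 0 throughout.

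The libraries came from C2C12, a mouse myoblast line that forms multinucleated myotubes in low-serum differentiation medium (DM). MB was total RNA depleted of ribosomal RNA from myoblasts at DM -24 h, that is, before the switch to DM, and MT was the same kind of RNA at DM 72 h. The other two libraries were polyA+ RNA at DM 48 h from cells given 100 nM of a control siRNA (si-NC) or of an siRNA against hnRNPL (si-hnRNPL), an RNA-binding protein. All cells were of the same line, for which the labels name no engineered allele, and each group had 1 library, so there was no replicate and no test could be made. The 2 comparisons were MT over MB and si-hnRNPL over si-NC. Total and polyA+ values are set side by side only, because preparation, sequencer and time in DM differ together.

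Hox proteins bind DNA through the homeodomain, whose last helix enters the major groove. Genes of low number lie at the 3′ end of each cluster and are used anteriorly in the embryo, while genes of high number lie at the 5′ end and are used posteriorly. Genes with the same number in different clusters are paralogs that arose when an ancestral cluster was duplicated. In the limb, Hoxa and Hoxd genes of the 5′ end pattern the axis from shoulder or hip to digits, and limb muscle precursors also express several Hox genes.

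The part of the homeobox that encodes the DNA-recognition helix is shown for Hoxa10 and Hoxc10 and for Hoxa11 and Hoxc11, paralogs that were both high, together with the silent Hoxd10. Each stretch is 30 bases of coding sequence on the sense strand, read from the GENCODE annotation of NCBIM37 (mm9), and capitals mark the 18 bases that encode the 6 invariant residues tryptophan, phenylalanine, glutamine, asparagine and a pair of arginines.
Hoxa10: aaaatcTGGTTTCAGAATCGCAGGatgaaa
Hoxc10: aaaatcTGGTTTCAAAATCGCAGAatgaaa
Hoxd10: aagattTGGTTTCAAAACCGCCGAatgaaa
Hoxa11: aaaatcTGGTTTCAGAACAGAAGAatgaag
Hoxc11: aaaattTGGTTTCAGAACAGGAGAatgaaa

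These stretches lie in the last exon of their genes. On the minus strand they are chr6:52182568-52182597 (Hoxa10) and chr6:52193416-52193445 (Hoxa11). On the plus strand they are chr15:102801414-102801443 (Hoxc10), chr15:102787046-102787075 (Hoxc11) and chr2:74532333-74532362 (Hoxd10). Each of the 39 genes has an annotated coding transcript that holds the core exactly once, in its last exon. Hoxa10 and Hoxc10 differ at 2 of the 30 bases, Hoxa11 and Hoxc11 at 3, and Hoxc10 and the silent Hoxd10 at 4. Over all 39 genes there were 36 distinct stretches. Pairs of the same number differed at 0 to 8 bases with a median of 4, and the other pairs at 0 to 11 with a median of 5.

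Similarity of this degree raises the question of shared reads. The longest exact run common to the annotated transcripts of any Hoxa and Hoxc gene was 33 bases, and 0 of these 99 pairs reached 36 bases, the shortest read the authors kept. Of the 569 pairs in different clusters, 6 shared a run of 36 bases or more, the longest being 52 bases between Hoxa6 and Hoxb4. Within a cluster, 6 pairs shared such a run. The longest were 1069 bases (Hoxb7 and Hoxb8), 831 (Hoxd3 and Hoxd4) and 269 (Hoxa2 and Hoxa3). For Hoxa10 and Hoxc10, no read of 36 bases or more can fit the annotated transcripts of both exactly. Reads that align with mismatches were not examined, so how far these levels rest on misassigned reads was not tested.

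The widths of the deposited intervals imply a depth of 59960200 fragments in MB and 54442400 in MT. The polyA+ libraries were shallower, with 21341100 (si-NC) and 14592500 (si-hnRNPL). Hox genes took 12904, 11014, 7215 and 5125 of these fragments in MB, MT, si-NC and si-hnRNPL. Below 200 fragments, 90.5% and 90.4% of the values inferred for MB and MT were within 0.01 of a whole number but only 39.3% and 38.1% of those for the polyA+ libraries, whose depths are therefore approximate. The interval given beside an FPKM is the deposited 95% interval, which covers counting and assignment error within 1 library and not the spread between cultures. The cell type labels were compared with marker genes. All 5 myotube markers were higher in MT than in MB, with a summed FPKM of 13.4 in MB and 1074 in MT. The 4 myoblast markers were not lower in MT as a list: Myod1 (0.83) and Des (0.98) were past 0.58 upward, Pax7 was at 0.53 and Myf5 at -0.01, and their sum was 154 FPKM in MB and 282 in MT. The 7 markers of blood, endothelial, epithelial, fat and bone cells were at 0.377 FPKM or less in every library, with sums from 0.138 to 0.450. Of these, Ptprc and Epcam were at 0 in MB, and Adipoq was at 0 in every library but si-hnRNPL.

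Of the 39 Hox genes, 14 reached 1 FPKM in MB, 14 in MT, 15 in si-NC and 15 in si-hnRNPL. Together these were 16 genes, 7 of the 11 Hoxa genes and all 9 Hoxc genes. The summed FPKM of the 39 was 85.3 in MB, 76.8 in MT, 129.8 in si-NC and 140.7 in si-hnRNPL. Hoxa gave 50.4%, 45.3%, 44.2% and 45.0% of the sum in that order, and Hoxc gave 49.2%, 54.4%, 55.2% and 54.6%. Hoxb never exceeded 0.536% and Hoxd 0.0232%.

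**Figure D1:**
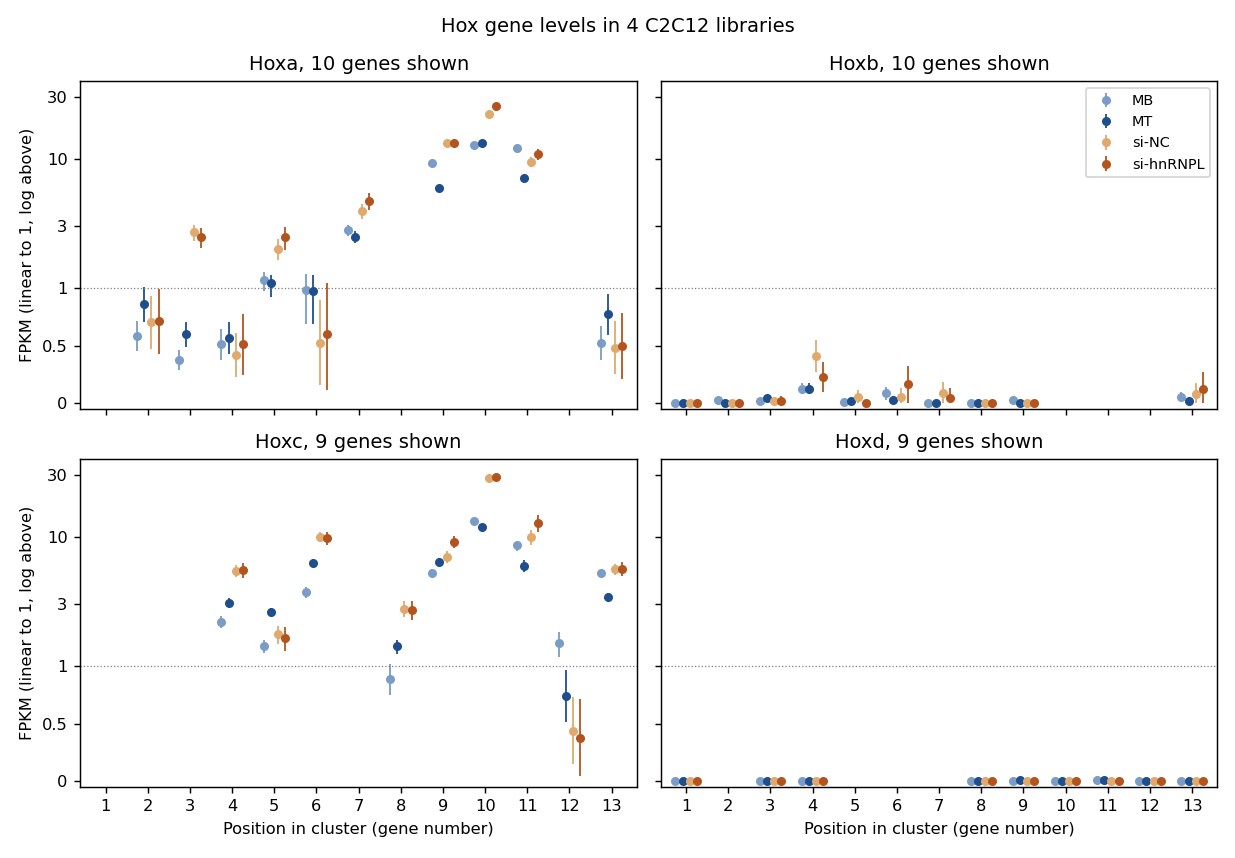
Level (FPKM, linear up to 1 and logarithmic above) of 38 Hox genes by position in the Hoxa, Hoxb, Hoxc and Hoxd clusters, in MB, MT, si-NC and si-hnRNPL (1 library each). Points are the deposited values and bars the deposited 95% intervals; Hoxa and Hoxc peak at position 10, while no Hoxb gene passes 0.411 FPKM and no Hoxd gene 0.0119 FPKM.

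Levels were uneven along the clusters. Genes of positions 10 to 13 held 63.4% of the summed Hox FPKM in MB, 56.4% in MT, 59.4% in si-NC and 60.3% in si-hnRNPL. Genes of positions 5 to 9 held 30.1%, 35.4%, 32.0% and 31.7%, and those of positions 1 to 4 held 6.57%, 8.21%, 8.60% and 7.91%. Paralog group 10 alone, which is Hoxa10, Hoxc10 and Hoxd10, held 30.5%, 32.9%, 39.3% and 38.7%.

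**Figure D2:**
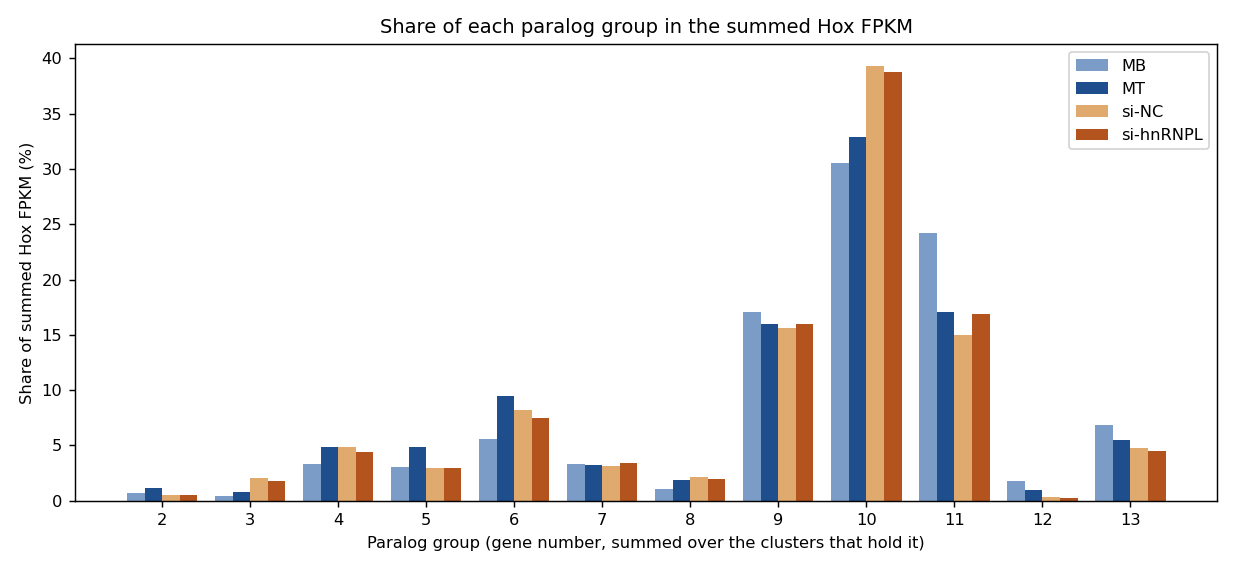
Share of the summed Hox FPKM (%, bars from 0) held by paralog groups 2 to 13 in MB, MT, si-NC and si-hnRNPL. Group 10 has the tallest bar in each library, at 30.5%, 32.9%, 39.3% and 38.7%, and group 11 differs most between MB (24.2%) and MT (17.1%).

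Hoxc10, which with its paralogs specifies lumbar motor neurons and hindlimb identity, was at 13.2 FPKM in MB (12.6 to 13.8), 11.9 in MT (11.3 to 12.4), 28.7 in si-NC (27.3 to 30.1) and 29.1 in si-hnRNPL (27.3 to 30.8). Hoxa10, which acts in lumbar vertebrae and in the uterus, was at 12.8 FPKM in MB (12.3 to 13.4), 13.3 in MT (12.7 to 13.99), 22.4 in si-NC (20.9 to 23.8) and 25.4 in si-hnRNPL (23.6 to 27.3). The intervals of these paralogs overlapped in MB, while Hoxa10 was the higher in MT and Hoxc10 in both polyA+ libraries, with intervals apart. Hoxc10 was above 76.9% of named entries in MB and above 88.1% in si-NC, so even the highest Hox genes stood below many others.

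Hoxa11, which with Hoxd11 shapes the bones of the forearm, was at 12.1, 7.14, 9.51 and 10.9 FPKM in MB, MT, si-NC and si-hnRNPL. Hoxa9, a regulator of blood stem cells that is overexpressed in many leukaemias, was at 9.34, 5.91, 13.3 and 13.3 FPKM. Hoxc11 was at 8.58, 5.97, 9.91 and 12.9 FPKM. These 3 genes came after the group 10 pair in MB, and each was lower in MT than in MB.

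Hoxc9, which restricts motor neurons of the trunk to thoracic fates, was at 5.22, 6.38, 6.995 and 9.19 FPKM. Hoxc13, needed for hair shafts and nails, was at 5.24, 3.41, 5.63 and 5.68 FPKM. Hoxc6, a gene of the thoracic and forelimb levels, was at 3.72, 6.27, 10.0 and 9.82 FPKM. Hoxc6 and Hoxc9 were lower in MB than in MT, unlike Hoxc13, which was lower in MT.

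Hoxc4 was at 2.20, 3.08, 5.47 and 5.52 FPKM and Hoxc5 at 1.43, 2.62, 1.76 and 1.65. Hoxc8, which acts in the lower cervical and thoracic segments, was at 0.890, 1.42, 2.79 and 2.73 FPKM. Hoxc12, which lies between Hoxc11 and Hoxc13, was below 1 FPKM in all but MB, at 1.501, 0.739, 0.439 and 0.375 FPKM.

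Of the more anterior Hoxa genes, Hoxa7 was at 2.80, 2.49, 3.96 and 4.74 FPKM and Hoxa5, which acts in the neck and lung, at 1.15, 1.09, 2.02 and 2.48. Hoxa3, which acts in the pharyngeal arches that give rise to the thymus, was at 0.375 FPKM in MB and 0.599 in MT against 2.71 in si-NC and 2.48 in si-hnRNPL. Its locus in the files, chr6:52119061-52163066, covers Hoxa4, Hoxa5, Hoxa6 and the noncoding Hoxaas3, and how fragments of this region were divided among them was not tested. Hoxa2, Hoxa4, Hoxa6 and Hoxa13 stayed below 1 FPKM in every library, between 0.420 and 0.984.

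Paralogs of Hoxa and Hoxc were compared within each library, as the ratio of the Hoxc to the Hoxa FPKM. Group 10 was near parity in all, at 1.03 in MB, 0.891 in MT, 1.28 in si-NC and 1.14 in si-hnRNPL. Group 11 leaned to Hoxa in MB (0.710), with intervals apart, and was at 0.836 in MT, 1.04 in si-NC and 1.18 in si-hnRNPL. Groups 4, 6 and 13 leaned to Hoxc throughout. For group 13 the ratio was 9.97, 4.42, 11.7 and 11.5, and for group 6 it was 3.77, 6.41, 19.2 and 16.3. Group 9 leaned to Hoxa in MB (0.559), si-NC (0.526) and si-hnRNPL (0.694), but was close to parity in MT (1.08).

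No Hoxb gene passed 0.411 FPKM, the value of Hoxb4 in si-NC. Hoxb4, a gene known for the expansion of blood stem cells, was the highest of the cluster in each library, at 0.125, 0.124, 0.411 and 0.224 FPKM. Hoxb1 and Hoxb8 were listed at 0 in all 4 libraries. The other Hoxb genes lay between 0 and 0.163 FPKM.

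In Hoxd, Hoxd1, Hoxd3, Hoxd4, Hoxd8, Hoxd10, Hoxd12 and Hoxd13 were listed at 0 in all 4 libraries. Hoxd9 was at 0.00593 FPKM in MT and listed at 0 in the other libraries. Hoxd11 was at 0.00884 FPKM in MB and 0.0119 in MT and listed at 0 in both polyA+ libraries. No interval of a Hoxd gene had a lower bound above 0.

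In mm9 the 4 clusters span chr6:52105366-52210874 (Hoxa), chr11:96055675-96229567 (Hoxb), chr15:102751562-102867283 (Hoxc) and chr2:74506367-74603199 (Hoxd), from 96.8 to 174 kb in length. Hoxb and Hoxd, where no gene reached 1 FPKM, have neighbours that were expressed. Within 200 kb of Hoxd, Mtx2, which encodes a mitochondrial import protein, was at 44.1 FPKM in MB, 35.9 in MT, 38.4 in si-NC and 40.4 in si-hnRNPL, and Lnpk, which encodes a protein of endoplasmic reticulum junctions, was at 7.45, 5.80, 7.43 and 5.87. Evx2, a homeobox gene beside the 5′ end of Hoxd, was listed at 0 in all libraries but si-NC, where it was at 0.0141 FPKM. Within 200 kb of Hoxb, Atp5g1, a subunit gene of ATP synthase, was at 169.6, 109, 102 and 135 FPKM. Snf8, of the endosomal sorting machinery, was at 45.3, 31.1, 51.1 and 56.6 FPKM. Ube2z, a ubiquitin-conjugating enzyme gene, was at 42.6, 26.6, 44.1 and 43.9 FPKM. Expressed genes thus lay within 200 kb of Hoxb and of Hoxd, but not next to Hoxb. The nearest of them there, Atp5g1, was 119 kb away. The named genes beside Hoxb that lay nearer, Ttll6 (28.9 kb), Gm11529 (78.6 kb), Calcoco2 (82.4 kb) and Skap1 (96.3 kb), stayed below 1 FPKM in every library. Beside Hoxd, Mtx2 was 60.7 kb and Lnpk 89.4 kb away.

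The MT over MB comparison asks which Hox genes differ between myoblasts and myotubes. Changes are log2 ratios of FPKM + 1, and a gene was counted as past the threshold at an absolute log2 change of 0.58. Of the 39 Hox genes, 1 was past it upward (Hoxc6) and 2 downward (Hoxa9 and Hoxa11), while 7.81% of all named entries were past it upward and 13.7% downward. Among the 15 Hox genes with at least 1 FPKM in MB or MT, the counts were again 1 and 2, against 15.4% upward and 28.6% downward of the 11816 entries at that level. These shares of the Hox genes were thus no higher than the background.

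The median change of the 10791 named genes with at least 1 FPKM in both libraries was -0.23, so a gene at a log2 change of 0 stood above the middle of the transcriptome. The median of the 15 expressed Hox genes was -0.12, beside -0.20 for all 11816 entries. Relative to the median gene, 3 of the 15 were past the threshold upward (Hoxc5, Hoxc6 and Hoxc8) and 0 downward, where 22.8% and 18.7% of the entries were. The call of Hoxc6 held on both scales, and those of Hoxa9 and Hoxa11 did not.

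In Hoxc the changes differed in sign between the 3′ and the 5′ side of the cluster. Hoxc4 (0.35, interval 0.20 to 0.50), Hoxc5 (0.57, 0.44 to 0.70), Hoxc6 (0.62, 0.48 to 0.77), Hoxc8 (0.36, 0.21 to 0.51) and Hoxc9 (0.25, 0.12 to 0.37) were higher in the MT library. Hoxc10 (-0.14, interval -0.23 to -0.05), Hoxc11 (-0.46, -0.63 to -0.29), Hoxc12 (-0.52, -0.79 to -0.26) and Hoxc13 (-0.50, -0.62 to -0.39) were lower. All 9 intervals left out 0, and those of the 5 genes on the 3′ side did not overlap those of the 4 genes on the 5′ side. Intervals that left out 0 were common in this comparison, with 33.8% of the 11816 entries above 0 and 55.7% below. Without the pseudocount, the FPKM ratio of MT to MB was 1.40, 1.83, 1.69, 1.60 and 1.22 for Hoxc4 to Hoxc9 and 0.901, 0.696, 0.493 and 0.651 for Hoxc10 to Hoxc13. The Spearman correlation of the change with position was -0.87 over the 9 genes, which share both libraries and 1 locus. Relative to the median gene, Hoxc10 turned to 0.09 and the other 8 kept their signs, from 0.85 for Hoxc6 to -0.30 for Hoxc12. The summed FPKM of Hoxc was 42.0 in MB and 41.8 in MT, nearly level on the deposited scale. Rescaling to a common total, with the highest 1% of entries left out, multiplies MT values by 1.26. On that scale the Hoxc total is higher in MT than in MB.

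**Figure D3:**
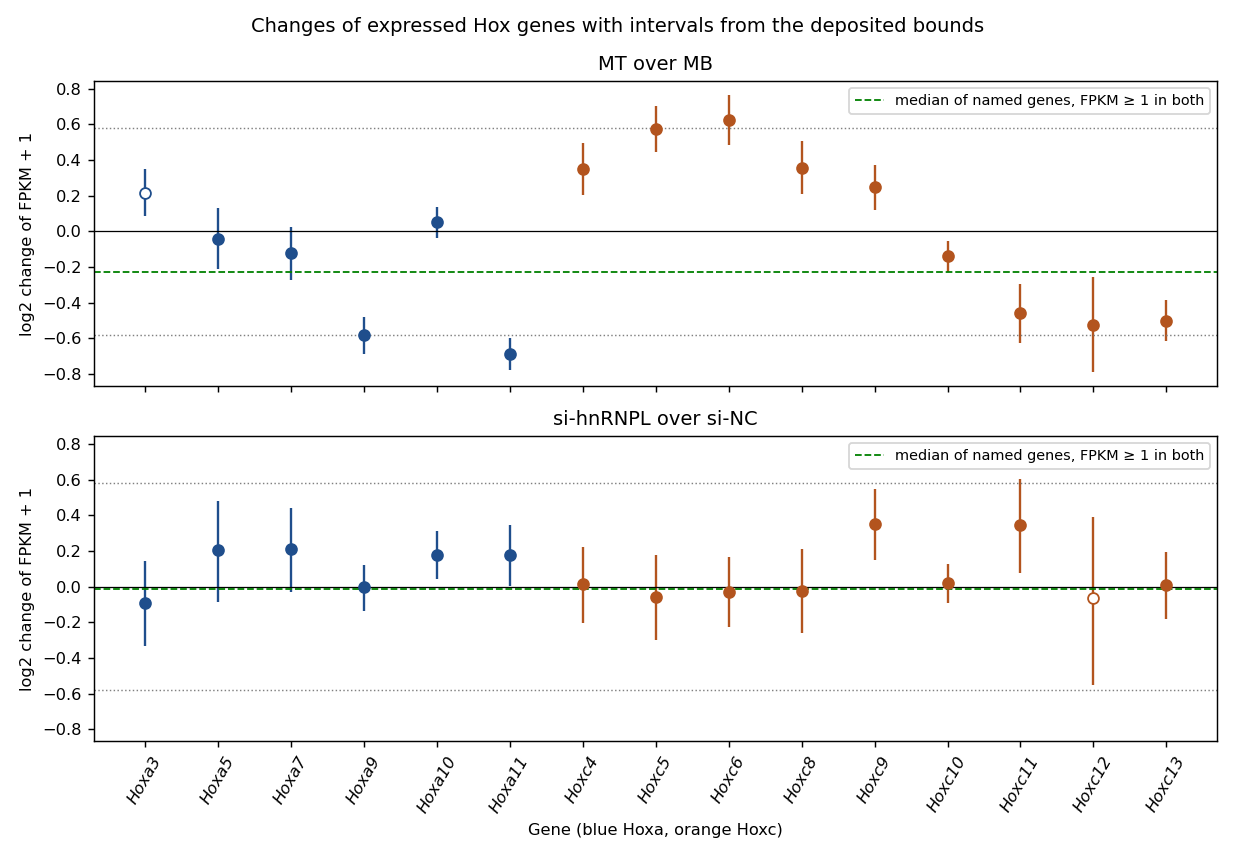
Log2 change of FPKM + 1 for 15 Hox genes with at least 1 FPKM in any library, MT over MB (upper) and si-hnRNPL over si-NC (lower), Hoxa in blue and Hoxc in orange. Bars are intervals built from the deposited bounds, open points are genes below 1 FPKM in both libraries of that pair, dotted lines mark 0.58 in either direction and the dashed line the median of named genes (-0.23 and -0.01). In the upper panel the Hoxc points descend from 0.62 at Hoxc6 to -0.52 at Hoxc12, and in the lower panel every point lies within the dotted lines.

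Hoxa did not show this split. Hoxa11 (-0.69, interval -0.78 to -0.60) and Hoxa9 (-0.58, -0.69 to -0.48) were lower in MT. Hoxa10, which lies between Hoxa9 and Hoxa11, had a change of 0.05 (-0.03 to 0.14). Hoxa5 (-0.04, -0.21 to 0.13) and Hoxa7 (-0.12, -0.27 to 0.03) had intervals that held 0. The Spearman correlation with position was -0.26 over the 6 expressed Hoxa genes. Relative to the median gene, Hoxa9 was at -0.36 and Hoxa11 at -0.46, while Hoxa10 was at 0.28. The 5 Hoxa genes below 1 FPKM in both libraries had changes from -0.0044 (Hoxa6) to 0.23 (Hoxa2). Without the pseudocount, their FPKM ratios of MT to MB were 1.48 (Hoxa2), 1.60 (Hoxa3), 1.10 (Hoxa4), 0.994 (Hoxa6) and 1.47 (Hoxa13). The intervals of Hoxa2, Hoxa3 and Hoxa13 lay above 0, and those of Hoxa4 and Hoxa6 held it. The summed FPKM of Hoxa was 43.0 in MB and 34.8 in MT on the deposited scale, before the factor of 1.26 given above for MT.

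The loci of Hoxa11 and its antisense RNA Hoxa11os overlap by 568 bases. Hoxa11os was at 8.72 FPKM in MB and 5.70 in MT, a change of -0.54 (-0.65 to -0.42), close to that of Hoxa11. The total RNA libraries were strand-specific, but whether strand was used in the quantification is not given in the sources used here, so reads of the overlap may be counted for either gene. In the polyA+ libraries Hoxa11os was at 9.73 (si-NC) and 10.8 FPKM (si-hnRNPL).

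The si-hnRNPL over si-NC comparison asks which Hox genes differ after the siRNA against hnRNPL. Hnrnpl itself was at 95.1 FPKM with the control siRNA and at 85.9 FPKM in si-hnRNPL, 90.4% of the control (log2 change -0.14, interval -0.20 to -0.09), and at 111 in MB and 63.0 in MT. The RNA of the targeted gene was thus only slightly lower in the library labelled si-hnRNPL. The paper examined the knockdown as protein, by Western blot, which these RNA values do not measure. None of the 39 Hox genes was past 0.58 in either direction, where 0.688% of all named entries were past it upward and 0.416% downward. Among the 15 Hox genes with at least 1 FPKM the counts were also 0 and 0, where 1.44% and 0.888% of the 11370 entries at that level were past it. With background shares this low, a count of 0 among 15 genes does not set the Hox genes apart.

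Smaller differences were mixed, with 10 of the 15 expressed Hox genes above 0 and 5 below. The interval lay above 0 for 4 of the 15 expressed Hox genes and below 0 for 0 of them, while 20.6% of all entries at that level lay above and 26.6% below, so the upward count of 4 is close to the background. Hoxc9 (0.35, interval 0.15 to 0.55) went from 6.995 FPKM (6.26 to 7.73) to 9.19 (8.15 to 10.2), and was the 1 expressed Hox gene whose library intervals did not overlap. Hoxc11 (0.34, 0.08 to 0.61) went from 9.91 FPKM (8.58 to 11.2) to 12.9 (10.98 to 14.7). Hoxa10 (0.18, 0.04 to 0.31) and Hoxa11 (0.18, 0.00 to 0.35) differed less. The median of the 15 was 0.02, beside -0.01 for all entries at that level.

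The intervals of the other genes named here held 0. Hoxc10, which lies between Hoxc9 and Hoxc11, had a change of 0.02 (-0.09 to 0.13). Hoxc4 (0.01), Hoxc6 (-0.03), Hoxc8 (-0.02) and Hoxc13 (0.01) were all within 0.05 of 0 with intervals that held it. Hoxa5 (0.20), Hoxa7 (0.21), Hoxa9 (-0.0038), Hoxa3 (-0.09) and Hoxc5 (-0.06) also had intervals that held 0. The Spearman correlation of change with position was 0.48 over 8 Hoxc genes and 0.25 over 7 Hoxa genes. In the same libraries the summed FPKM of the 5 myotube markers was 1595 (si-NC) and 2345 (si-hnRNPL), with 2 of the 5 past 0.58, Ckm at 0.71 and Acta1 at 0.61. The part of this difference in the Hox values was not tested.

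Hox proteins bind many sites together with partners of the TALE class, the Pbx, Meis and Pknox families, and 8 of the 9 genes listed were at or above 1 FPKM. Pknox2 was past the threshold upward in MT over MB, from 1.45 FPKM (1.26 to 1.64) to 4.08 (3.79 to 4.36), a log2 change of 1.05. It was at 6.06 (si-NC) and 5.63 FPKM (si-hnRNPL). Meis1, a partner of Hoxa9 in leukaemia, was past it downward, from 8.49 FPKM to 5.21 (-0.61, interval -0.71 to -0.52), and at -0.38 relative to the median gene. Pbx3 went from 7.66 to 4.82 FPKM (-0.57) and Pknox1 from 12.05 to 8.86 (-0.40), both short of the threshold. Of all entries with at least 1 FPKM in MB or MT, 15.4% were past it upward and 28.6% downward. A count of 1 in each direction among 9 genes thus does not set the partners apart.

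The other partners differed less between MB and MT. Pbx2 was at 11.7 and 11.4 FPKM (-0.04), Meis2 at 7.66 and 7.18 (-0.08) and Meis3 at 5.90 and 5.47 (-0.09). Pbx4 was below 1 FPKM in every library. In si-hnRNPL over si-NC 0 of the 9 were past 0.58, with Pknox1 the farthest from 0, at 7.58 and 6.13 FPKM (-0.27, interval -0.41 to -0.12). Few entries with at least 1 FPKM were past it in that pair, 1.44% upward and 0.888% downward, so this count does not set the partners apart. Pbx2 was at 16.9 FPKM in si-NC.

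Of 5 regulators known to act upstream of Hox genes, 2 were expressed. Gdf11, a secreted signal of the trunk-to-tail transition, was at 10.9, 9.97, 9.23 and 7.51 FPKM in MB, MT, si-NC and si-hnRNPL. Kmt2a, a histone methyltransferase that maintains Hox transcription, was at 3.16, 2.72, 7.07 and 6.01 FPKM. Cdx2 and Cdx4, caudal-type homeobox genes, were listed at 0 in all libraries and Cdx1 did not pass 0.0434 FPKM. None of the 5 was past 0.58 in either comparison, with Gdf11 at -0.26 and Kmt2a at -0.20 in si-hnRNPL over si-NC. Of all named entries, 7.81% were past it upward and 13.7% downward in MT over MB. In si-hnRNPL over si-NC these shares were 0.688% and 0.416%. A list of 5 genes with none past it is thus not set apart.

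Several noncoding RNAs lie inside the transcribed clusters. Hotair, antisense RNA between Hoxc11 and Hoxc12 at chr15:102774493-102778377, was at 1.57 FPKM in MB (1.38 to 1.76), 2.47 in MT (2.24 to 2.71), 3.31 in si-NC and 3.46 in si-hnRNPL. Its change in MT over MB was 0.44 (0.29 to 0.58), opposite in sign to those of Hoxc11 (-0.46) and Hoxc12 (-0.52) on either side. Mira, beside Hoxa7, was at 8.47, 6.06, 13.3 and 15.9 FPKM, with a change of -0.42 (-0.61 to -0.24) in MT over MB. Hotairm1, at the 3′ end of Hoxa, was at 4.07, 3.78, 7.45 and 10.6 FPKM, with wide intervals (2.03 to 19.2 in si-hnRNPL). None of these was past 0.58 in either comparison. The 6 microRNA genes inside the clusters (the Mir10 and Mir196 genes and Mir615) were listed at 0 in all libraries, none of which is labelled as a small RNA library.

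Beside the clusters, Calcoco1, which encodes a coactivator and autophagy receptor and lies 199 kb from Hoxc, was at 10.3 FPKM in MB and 64.6 in MT (2.53, interval 2.47 to 2.59). It was at 73.4 (si-NC) and 93.8 FPKM (si-hnRNPL). On the other side of Hoxc, Cbx5, which encodes a heterochromatin protein, was at 71.4 FPKM in MB and 69.8 in MT, and the DNA repair gene Smug1 at 8.90 and 8.10. In the polyA+ pair Cbx5 was at 53.0 and 44.9 FPKM and Smug1 at 9.19 and 7.94. Skap2, a signalling adaptor gene beside Hoxa, was at 24.5, 33.9, 42.2 and 44.3 FPKM (0.45 in MT over MB). Of the genes beside Hoxb, Ube2z (-0.66) and Atp5g1 (-0.63) were past the threshold downward in MT over MB, and Snf8 was at -0.53. Of all entries with at least 1 FPKM in MB or MT, 28.6% were past it downward. Relative to the median gene, Ube2z was at -0.44, Atp5g1 at -0.40 and Snf8 at -0.30, so neither call held on that scale.

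The total RNA files also list transcribed units that the authors assembled and that carry no gene name. Inside the 4 clusters there were 14 of them, 11 in Hoxa, 3 in Hoxc and 0 in Hoxb and Hoxd. In MT over MB 13 of the 14 were higher and 1 lower, and 2 were past 0.58 upward, where 19.8% of the 36780 units of the series were. Over all units 29156 were higher and 7624 lower, so an upward change was the common direction.

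**Figure D4:**
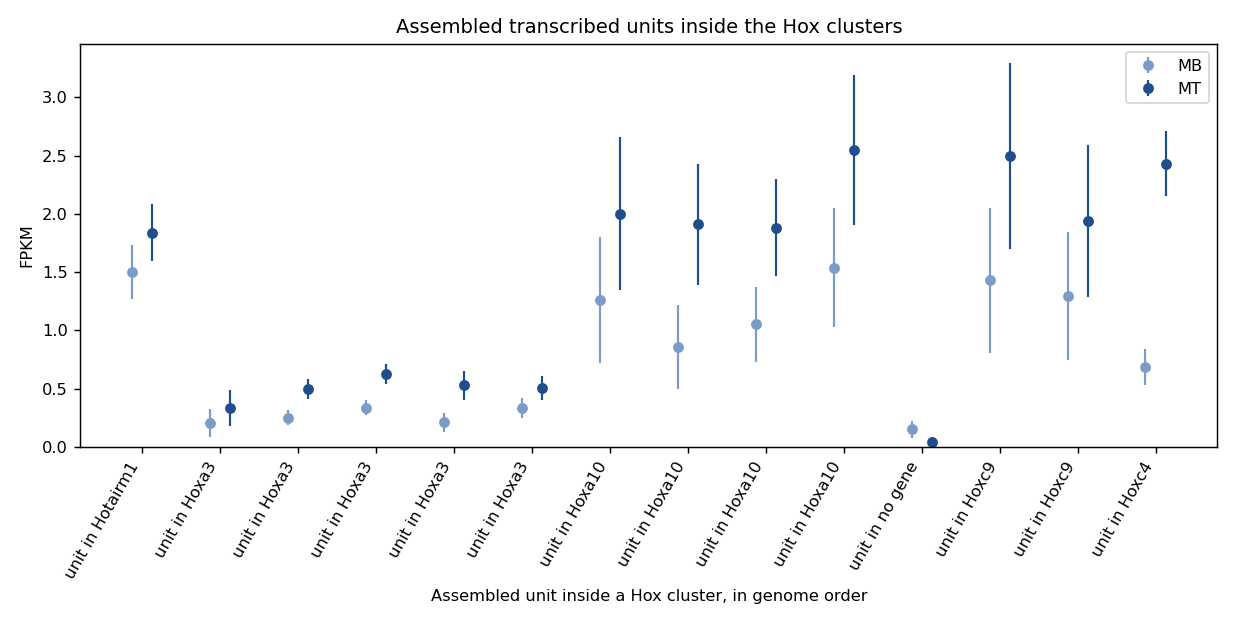
Level (FPKM) of the 14 unnamed assembled units inside the Hox clusters in MB and MT, in genome order, with the gene whose annotated locus holds each. Bars are deposited 95% intervals. Of the 14 MT points, 13 are above their MB points, with the widest gap for the unit in the GENCODE locus of Hoxc4 (0.686 and 2.43 FPKM).

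The unit with the greatest change lies in an intron of Hoxc4 as GENCODE annotates it, at chr15:102859601-102861185, and was at 0.686 FPKM in MB (0.533 to 0.838) and 2.43 in MT (2.15 to 2.71), a log2 change of 1.02. The deposited Hoxc4 entry, which starts at chr15:102864826 and so does not hold this unit, had 0.35. A pair of units in an intron of Hoxc9 were at 1.43 and 1.29 FPKM in MB and 2.49 and 1.94 in MT, changes of 0.53 (0.03 to 1.05) and 0.36 (-0.12 to 0.85), intervals that both held the 0.25 of Hoxc9.

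Hoxa10 held 4 intronic units, at 1.26, 0.858, 1.05 and 1.54 FPKM in MB and 2.00, 1.91, 1.88 and 2.55 in MT. Their changes were 0.41, 0.65, 0.49 and 0.48, beside 0.05 for Hoxa10 itself. The interval of the first held 0, and only those of the second (0.27 to 1.04) and the third (0.18 to 0.80) were apart from that of Hoxa10 (-0.03 to 0.14). The 5 units inside Hoxa3 went from between 0.205 and 0.337 FPKM in MB to between 0.336 and 0.627 in MT, beside 0.375 and 0.599 for the named gene. The 1 unit that was lower in MT lies between Hoxa11 and Hoxa13, at 0.150 FPKM in MB and 0.0446 in MT.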

How the data were processed

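Per the labels and the study's methods, reads of at least 36 bases were aligned by the authors with TopHat (version 2.0.13, mm9) and transcripts estimated with Cufflinks (version 2.1.1). The deposited files hold, for each of the 4 libraries, FPKM per gene with a 95% interval; total RNA files add assembled units. Whether quantification used strand is not given in the sources used here. From these values the log2 ratio of FPKM + 1 was computed in Python 3.11.15 with pandas 2.3.3, with an interval combining the deposited bounds, and counted at 0.58. Each group had 1 library, so no test was run. Changes were also given relative to the median named gene. Fragments were inferred from interval widths. Sequences and coordinates came from GENCODE for NCBIM37 (mm9). Deposited starts, which count from 0, were raised by 1. Calculations were tested on simulated data. The members, lists and tests were chosen with earlier results of these data known. Named were the Hox genes at 1 FPKM in any library or past 0.58, the neighbours meeting the same rule and the partners. Alternatives changed the pseudocount, threshold, filter and scaling. Values of some genes and some sequences are not reported here.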

Additional observations from a re-analysis of the deposited data

How the results depend on the processing

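No paired analysis was possible because each group had 1 library. In MT over MB, the Hox genes past the threshold upward and downward, 1 and 2 as reported, were 3 and 5 with a pseudocount of 0.1, 6 and 9 with 0.01, 0 and 0 at a threshold of 1, and 3 and 0 both when centred on the median gene and when rescaled to a common total. The 3 upward genes were Hoxc5, Hoxc6 and Hoxc8 (0.586) when centred. They were Hoxc4, Hoxc5 and Hoxc6 when rescaled, where Hoxc8 was at 0.565. In si-hnRNPL over si-NC the counts were 0 and 0 as reported, 1 and 2 with a pseudocount of 0.1, and 1 and 3 with 0.01. The median log2 change over all 39 genes, 0 in both comparisons, was -0.12 and 0.018 with at least 1 FPKM required, and 0.23 in MT over MB when centred. Partner genes past the threshold downward in MT over MB, 1 as reported, were 2 with a pseudocount of 0.1 and 0 when centred. Genes whose interval had a lower bound above 0 numbered 24 in MB and 22 in MT, against 14 at 1 FPKM, and 23 genes reached 0.1 FPKM in si-hnRNPL, against 15 at 1 FPKM. The share of positions 10 to 13 (63.4%, 56.4%, 59.4% and 60.3% in MB, MT, si-NC and si-hnRNPL) was 42.9%, 35.7%, 33.3% and 33.3% by number of genes at 1 FPKM, and 80.5%, 72.4%, 75.0% and 76.3% when position 9 was added. The cause of these moves was not tested. The upward call of Hoxc6 was, of the alternatives run, lost only at a threshold of 1. Genes of few fragments, such as Hoxc12 in si-hnRNPL (5.00 fragments), are limited by depth.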
